A study of Mus musculus with 32 samples.

Results

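Vascular and leptomeningeal cells (VLMCs) of the mouse median eminence (ME) were chosen from the matrix as cells with at least 10 UMIs of Dcn, fewer than 5 UMIs of C1qc and fewer than 10 UMIs of Agt. The rule took 273 of 5982 cells, which is 4.56% of all cells (exact Clopper-Pearson 95% interval 4.05% to 5.12%). Dcn encodes the proteoglycan decorin, C1qc a complement subunit made by microglia, and Agt the angiotensinogen made by astrocytes. A UMI (unique molecular identifier) marks a single captured transcript, so that copies made by PCR are counted once. Because measured UMIs of these 3 genes chose the cells, every difference from other cells is given as a description and no test was run.

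The ME was taken from male C57B/L6 mice aged 40 to 47 days, of which 5 had been fasted overnight (16 h) and 5 had been refed normal chow for 1 h after such a fast. Tissue of each condition was pooled, dissociated in papain, sorted for live nucleated single cells and split over 2 droplet libraries. The matrix tags each cell with a barcode number from 1 to 4 that no source ties to a library or a condition, so fasted and refed cells could not be told apart and all values cover both. Each condition was a single pool of mice, and differences between mice were therefore not measured.

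VLMCs are the fibroblasts of the brain. They line the pia and the arachnoid, the thin inner membranes of the meninges, and run along larger vessels into the tissue, where they lay down collagen, proteoglycans and part of the basement membrane that separates brain from vessel. The ME lies outside the blood-brain barrier, its capillaries are fenestrated, and its lower surface is covered by the leptomeninges and by the pars tuberalis of the pituitary. Fibroblasts of the meninges are also known as a source of retinoic acid, prostaglandin D synthase, insulin-like growth factor 2 and chemokines.

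The rule separated the cells with few in between. In the matrix 5011 cells had no UMI of Dcn, 615 had 1 and 16 had 3 to 9. Of the 277 cells with at least 10 UMIs, 1 was left out for C1qc (17 UMIs) and 3 for Agt (10, 11 and 11 UMIs, with 48, 33 and 43 UMIs of Dcn). Just outside the limit lay cells with 5, 6 and 9 UMIs of Dcn, and just inside it lay 10 cells with 10 to 14, of which 4 fell in a cluster with pituitary markers. The highest C1qc in a chosen cell was 2 UMIs and the highest Agt was 7, and 247 and 201 of the 273 cells had none. The chosen cells held 94.9% of all UMIs of Dcn.

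**Figure D1:**
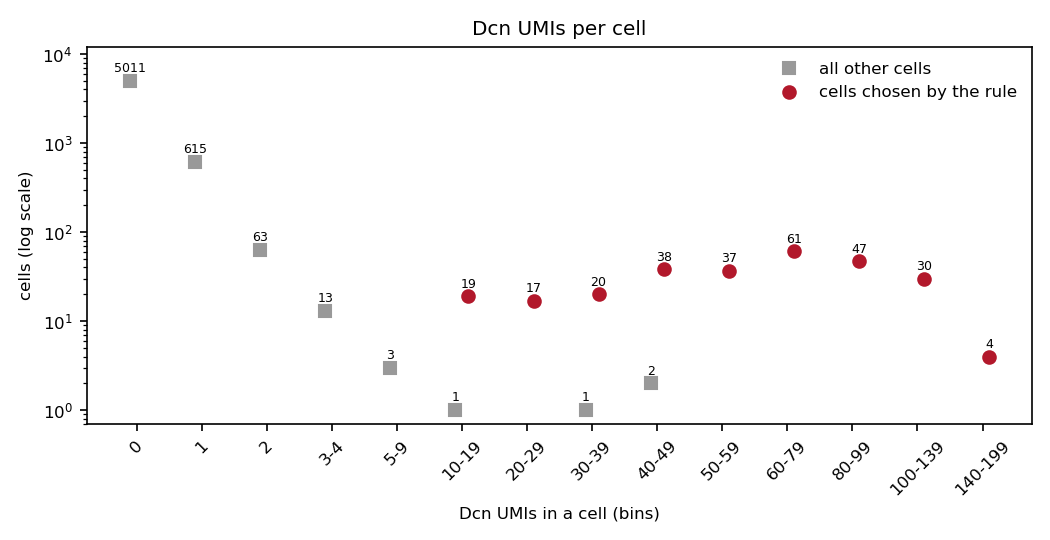
Number of cells (y axis, log scale) in each bin of Dcn UMIs per cell (x axis), for cells chosen by the rule (red circles) and all other cells (grey squares), with the number printed above each point. Most other cells sit at 0 or 1 UMI, 19 chosen cells lie in the bin of 10 to 19, and 179 have 50 or more.

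The chosen cells held 875662 of the 29288898 UMIs. They ranged from 1654 to 12490 UMIs per cell with a median of 2904, against 3919 in all other cells, and a median of 1463 genes was detected per cell, against 1885. Mitochondrial genes took a median of 3.93% of UMIs, close to the 4.07% of other cells. Barcode numbers 1 to 4 held 63, 74, 73 and 63 chosen cells out of 1642, 1493, 1359 and 1488 cells. Of 5961 distinct barcode sequences 21 occurred under more than 1 number, and none of these belonged to a chosen cell. A doublet caller marked 50 of all cells (0.836%) and 1 chosen cell.

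When all cells were clustered, 22 of 25 clusters could be named from marker lists, and 260 of the 273 chosen cells fell in the cluster of VLMC markers and 13 in others. Levels were computed by summing the UMIs of a gene over the cells of a group, per 1000000 UMIs of that group (CPM). These counts come from the 3′ end of transcripts and depend on the gene as well as on its level. Folds are ratios of CPM with 10 added to each side, which understates the fold of genes with low counts, and the next cell type is whichever of the 14 other groups (12 named types and 2 unnamed clusters) had the highest CPM. These groups leave out 8 cells of the cluster of VLMC markers and 18 cells of an unnamed cluster whose best list was VLMC. A gene called highest or above the next type can therefore be higher in those cells, which are described further on. All 95% intervals cover counting error only.

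The markers of the label were compared with other types as a description. Of 10 VLMC markers 7 lay at least 4-fold above the next cell type and 10 at least 4-fold above all other cells pooled. Across the matrix 67 of 13953 genes compared (0.48%) passed the first limit, and 302 (2.16%) passed the second. With shares this low over all genes, a list without a call is not read as a result about its genes. The median fold over the next type was 8.26 for the list and 0.473 for all genes. Without 11 cells described further on, Slc6a13 was 2.68-fold above the next type and Igf2 2.25-fold above all other cells. Since Dcn is a marker of this list as well as the gene of the rule, its pass was fixed. The other markers were known from these cells, so the count is not independent of the choice and does not test the label.

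Decorin and lumican are small leucine-rich proteoglycans that bind collagen fibrils and set their width. Dcn reached 20075 CPM (19779 to 20374), with 17602, 19700.0, 22778 and 19862 CPM at barcode numbers 1 to 4 and 10, 61 and 178 UMIs as the lowest, median and highest in a cell. In every other type Dcn lay between 20.5 CPM in oligodendrocyte precursor-like and 70.8 CPM in pars tuberalis-like cells, so the fold over the next type was 249. Lum (lumican) followed the same pattern at 2499.8 CPM (2396 to 2607), against 12.6 CPM in pars tuberalis-like cells, a fold of 111. Its level was even across the barcode numbers, at 2573, 2472, 2640.0 and 2303 CPM. At least 1 UMI of Lum was found in 89.7% of chosen cells (85.5% to 93.1%). The share in microglia-like cells, which should lack it, was 0.990%, with median depths of 2904 and 3086.5 UMIs.

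Col1a1, the main chain of type I collagen, stood at 1309.9 CPM (1235 to 1388) and at 1429, 1414, 1232 and 1164 CPM by barcode number. The next type was astrocyte-like cells at 21.7 CPM, 41.6-fold lower, and 94.5% of chosen cells had a UMI. Mgp encodes matrix Gla protein, an inhibitor of calcification that vascular smooth muscle makes too. It reached 4037 CPM (3905 to 4172) with 5051, 4191, 3777 and 3173 CPM by barcode number, highest at number 1 and lowest at number 4. Mural-like cells held 1174 CPM, so Mgp missed the 4-fold limit at 3.42-fold and was also found in mural-like cells. The 18 cells of the unnamed cluster that was left out of the other types had more Mgp than the chosen cells.

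Igf2, which encodes insulin-like growth factor 2, went against its role as a marker of all these cells. Its sum was 73.1 CPM (56.3 to 93.3), 1.98-fold above the 32 CPM of mural-like cells, and 24 of 273 chosen cells (8.79%) had a UMI. By barcode number Igf2 stood at 35, 114, 60.3 and 77.3 CPM. Of its 64 UMIs in chosen cells 47 (73.4%) came from 11 cells that are described further on, and without them the level was 20.6 CPM. The chosen cells held 38.8% of the 165 UMIs of Igf2 in the whole matrix.

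Of the other listed markers, Col1a2 and Col3a1 code for collagen chains, Slc6a13 for a transporter of GABA and taurine, Pdgfra for a receptor of platelet-derived growth factor and Igfbp2 for a binding protein of insulin-like growth factors. Col3a1 stood at 654 CPM and 25.5-fold above the next type, Igfbp2 at 756 CPM and 9.20-fold, Col1a2 at 915 CPM and 7.33-fold, and Slc6a13 at 219 CPM and 6.03-fold. The call for Slc6a13 rested on 11 cells, described further on as the Vtn-led group, without which it was at 91.9 CPM and 2.68-fold. Pdgfra was found at 324 CPM in chosen cells and at 894 CPM in oligodendrocyte precursor-like cells, so the receptor marked both and was highest in the latter.

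The 20 genes furthest above the next cell type were led by Dcn, whose place was fixed by the rule, and then by Mfap4 (134-fold), Lum, Inmt (75.4), Col1a1 and Mfap5 (36.5). Mfap4 and Mfap5 code for proteins of the microfibrils on which elastic fibres form, and Inmt for an enzyme that methylates indole amines. Mfap4 had 3008 CPM (2894 to 3125) in chosen cells, with 3562, 3052, 2571 and 2912 CPM by barcode number, and 12.5 CPM in the next type. Inmt had 1299.6 CPM against 7.37 in microglia-like cells, and Mfap5 521 CPM against 4.54 in endothelial-like cells. All 3 genes were thus scarce in every other type.

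The rest of the 20 were Cemip (27.5-fold), a hyaluronan-degrading protein, Col3a1, Col6a1 (25), the ferritin receptor Scara5 (23), the serine protease Htra3 (21.2), Fibin (21.1), the hyaluronan-binding inhibitor chain Itih2 (19.3), Loxl1 (18.4), the actin-severing protein gelsolin Gsn (16.6), Tcf21 (16.2), Igfbp6 (15.4), Serpinf1 (14.8), Ccl11 (13.9) and Efemp1 (11.9). Most encode proteins that are secreted or bound in the matrix, with the transcription factor Tcf21, the receptor Scara5 and Inmt among the others. In all 22 genes lay at least 10-fold above the next type and 661 of the 13953 genes were highest in the chosen cells.

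After mitochondrial and ribosomal protein genes, the 10 genes with the most UMIs in chosen cells were Malat1 (64696 CPM), Gsn (32021), Dcn, Ptgds (7732), Apoe (5920.1), Apod (5801), Fth1 (4782), Itih5 (4091), Mgp and Cst3 (3975). Malat1 is a nuclear RNA found in most cells. Gsn and Dcn had the most UMIs of the protein-coding genes in this list, and the next type for Gsn was mature oligodendrocyte-like cells at 1923 CPM. Apoe and Cst3, a lipid carrier and a protease inhibitor of glia and macrophages, were 0.376 and 0.256 times the level of all other cells, that is lower. Apod, a lipid carrier of fibroblasts and oligodendrocytes, was highest in the chosen cells at 2.17 times the 2664 CPM of mature oligodendrocyte-like cells.

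**Figure D2:**
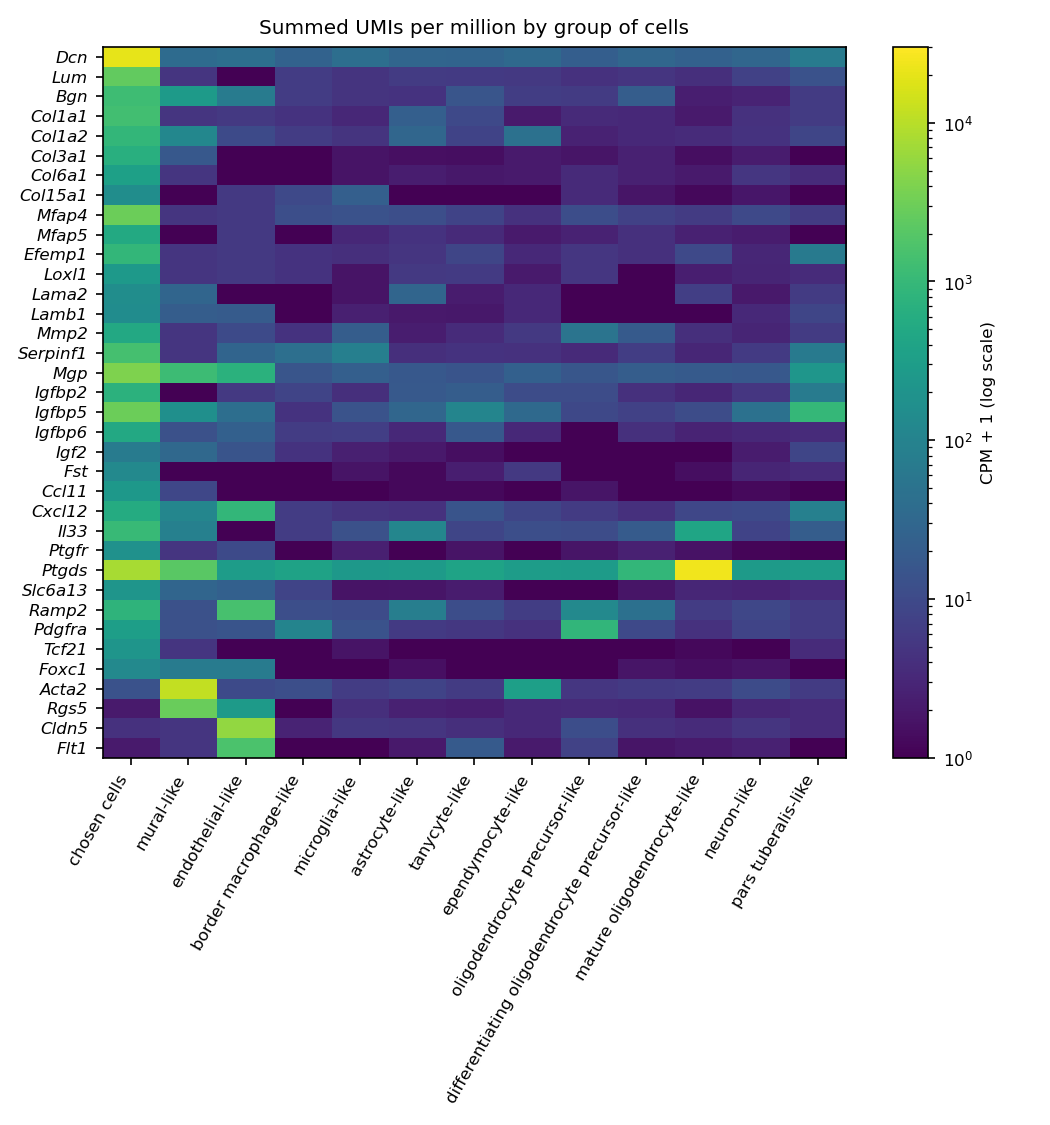
Summed level (colour, CPM + 1 on a log scale) of 36 genes in the chosen cells (first column) and in 12 named cell types, without the 2 unnamed clusters. Dcn, Lum, Mfap4 and the collagen genes are brightest in the first column, Mgp and Bgn also in mural-like cells, Ptgds is brightest in mature oligodendrocyte-like cells, and Acta2 and Cldn5 mark mural-like and endothelial-like cells.

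Collagens of the fibril-forming class give tissue its tensile strength. Of 8 such genes compared, 3 passed 4-fold above the next type, namely Col1a1, Col1a2 and Col3a1. The type V chains Col5a2 (62.8 CPM) and Col5a3 (49.1 CPM) were near the next type at 1.28-fold and 0.966-fold, and Col2a1, the collagen of cartilage, had 1 UMI. Among 9 genes of beaded filaments and fibril surfaces, Col6a1 (344 CPM, 25-fold) and Col6a2 (194 CPM, 7.85-fold) passed, and Col6a3, the third chain of the classical type VI molecule, stood at 44.5 CPM and 3.11-fold. Col6a4, Col6a5 and Col6a6 had no UMI, which with 3 counts as the limit allows up to 3.43 CPM in the summed chosen cells, as for every gene named here without a UMI.

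The collagens of basement membranes and networks gave a different split. Against all other cells 8 of 10 passed 4-fold, but against the next type 1 did, Col15a1 (158 CPM, 5.22-fold), which anchors basement membranes to the stroma. Endothelial-like cells had more of the common chains Col4a1 (199.7 CPM against 167) and Col4a2 (199.7 against 69.7). The chosen cells had more of the rarer chains Col4a5 (226 CPM, 2.88-fold) and Col4a6 (67.4 CPM, 3.51-fold), with mural-like cells next for both. Col8a1, a short-chain network collagen of vessels, stood at 116 CPM and 3.86-fold.

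Glycoproteins of the basement membrane followed by class. The laminin chains Lama2 (155 CPM, 4.34-fold) and Lamb1 (151 CPM, 5.35-fold) passed, the only 2 of 11 genes that did, while 6 of 11 passed against all other cells. Perlecan, encoded by Hspg2, stood at 215 CPM and 2.58-fold, and nidogen, encoded by Nid1, at 193 CPM and 1.61-fold. The chains Lama1 and Lama5 had 11 and 3 UMIs.

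Of 10 small leucine-rich proteoglycan genes compared, Dcn, Lum and Bgn passed. Bgn (biglycan) reached 1222 CPM and 4.30-fold over the 276 CPM of mural-like cells. The class was not high as a whole, since Aspn (asporin) had 2 UMIs in chosen cells and 1109 CPM in mural-like cells. On chromosome 10 the genes of 4 members lie side by side (GRCm38, GENCODE vM21), in the order Dcn (chr10:97479609-97518143, plus strand), Lum (chr10:97565128-97572703, plus strand), Kera (chr10:97606879-97613692, plus strand) and Epyc (chr10:97644068-97682454, plus strand). The level of Dcn and Lum did not extend to their neighbours, as Kera had no UMI and Epyc 1 in the chosen cells.

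Elastic fibre and microfibril genes had the most calls above the next type among the matrix lists by number. By share they did not, since 3 of 8 fibrillar collagen genes passed, and over all genes the share was 0.48%. Of 18 compared, 6 passed above the next type (Mfap4, Mfap5, Loxl1, Efemp1, Fbln2 and Mfap2), 13 passed above all other cells and 13 were highest in the chosen cells. The list median was 2.13-fold over the next type against 0.473 for all genes. Efemp1 (fibulin 3) had 922 CPM, Mfap2 447 CPM, Loxl1, an enzyme that crosslinks elastin, 260.4 CPM, and Fbln2 208 CPM. Elastin itself, encoded by Eln, stood at 284 CPM and 2.26-fold over mural-like cells, and fibrillin 1, encoded by Fbn1, at 45.7 CPM and 3.73-fold. Ltbp4, which tethers TGF-beta to microfibrils, was level with endothelial-like cells (246 and 249.6 CPM).

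Enzymes that build and cut the matrix were mostly shared with other types. Of 19 genes of collagen processing 2 passed above the next type, Pcolce (653 CPM, 4.30-fold), which speeds the trimming of procollagen, and the procollagen protease Adamts2 (79.9 CPM, 4.13-fold). The collagen chaperone Serpinh1 had the highest level of the list at 956 CPM but 504 CPM in endothelial-like cells. Of 18 proteases and inhibitors Serpinf1 (1413 CPM, 14.8-fold), Htra3 (683 CPM, 21.2-fold) and Mmp2 (501 CPM, 8.29-fold) passed. Serpinf1 codes for pigment epithelium-derived factor, an inhibitor of vessel growth, and Mmp2 for gelatinase A. Timp3 (1832 CPM) and Timp2 (701 CPM), inhibitors of matrix proteases, were 2.12-fold and 1.20-fold over the next type, Mmp9 had 1 UMI and Mmp3 none.

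Signals of the insulin-like growth factor system were held mainly by binding proteins, which control how much ligand reaches the receptor. Igfbp2 and Igfbp6 (493 CPM, 15.4-fold) passed above the next type, 2 of 11 genes, and 7 of 11 passed above all other cells. Both were higher in cells left out of the other types, Igfbp2 in the 8 of the cluster of VLMC markers and Igfbp6 in the 18 of the unnamed cluster. Igfbp5 was the most abundant at 3010.3 CPM, 3.09-fold over the 968 CPM of pars tuberalis-like cells, and Igfbp4 stood at 443 CPM. Igfbp7 (2154 CPM) was higher in mural-like cells (5579 CPM), and Igfbp3 (20.6 CPM) in endothelial-like cells (595 CPM). Of the ligands Igf1 had 94.8 CPM, below the 155 CPM of border macrophage-like cells, and the receptor Igf1r had 43.4 CPM.

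Of 18 BMP and TGF-beta ligands and antagonists 1 passed above the next type. This was Fst (follistatin, which binds activins), at 127 CPM (104 to 153) and 9.22-fold, with UMIs in 17.2% of chosen cells. The ligands Bmp7 (89.1 CPM), Bmp5 (62.8 CPM) and Bmp2 (39.97 CPM) were highest in the chosen cells but 1.07, 1.35 and 1.65 times the next type, and without the 11 Vtn-led cells Bmp7 was 0.915 times it. Bmp4 stood at 130.2 CPM, against 1172 CPM in cells that resembled differentiating oligodendrocyte precursors. Of 14 WNT ligands and regulators none passed above the next type, where 0.48% of all genes did. Above all other cells 2 passed, Wnt5a (86.8 CPM) and Wnt6 (39.97 CPM), which were 3.31-fold and 2.68-fold above the next type. Without the 11 Vtn-led cells Wnt6 was at 7.25 CPM.

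Chemokine genes were detected at several levels. Ccl11 (eotaxin), which attracts eosinophils, was the 1 gene of 15 past 4-fold above the next type, at 241 CPM (209.5 to 276) against 8.01 CPM in mural-like cells. It was found in 28.2% of chosen cells, so it was detected in a part of them. Its levels at barcode numbers 1 to 4 were 219.8, 254, 301 and 179 CPM. Il33, an alarm cytokine stored in the nucleus, had 1022 CPM against 431 CPM in mature oligodendrocyte-like cells, and Cxcl12, which holds CXCR4-bearing cells in place, 568 CPM against 903 CPM in endothelial-like cells. Il6, Lif and Tnfsf13b had no UMI.

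Retinoid genes included several steps at low level, and none of 15 passed above the next type, where 0.48% of all genes did. The plasma carrier Rbp4 had 122 CPM (6.04 CPM without the 11 Vtn-led cells), and the retinal dehydrogenases Aldh1a1 and Aldh1a2 103 and 26.3 CPM (90 and 23 UMIs). The acyltransferase Lrat and the breakdown enzymes Cyp26a1 and Cyp26b1 had no UMI. Of 12 prostaglandin genes Ptgfr, the receptor of prostaglandin F2 alpha, passed at 184 CPM and 10.2-fold. Ptgds, prostaglandin D synthase, had 7732 CPM, below the 24090.3 CPM of mature oligodendrocyte-like cells, and its UMIs were unevenly spread over the chosen cells. The median cell had 1 UMI of Ptgds and the highest 1538, and 52% of chosen cells had a UMI, as had 52% of microglia-like cells. With each cell thinned to 1000 UMIs the shares were 27.8% and 19.6%.

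Of 23 transporters Slc6a13 and Abca8a (119.9 CPM, 4.06-fold), a lipid transporter, passed above the next type, and without the 11 Vtn-led cells Slc6a13 was 2.68-fold above it. Slc2a1, Slco1a4 and Abcb1a, transporters of the barrier endothelium, had 21.7, 5.71 and 3.43 CPM against 2582, 4434 and 789.7 CPM in endothelial-like cells. Of 25 hormone and metabolic receptors none passed, where 0.48% of all genes compared did. The most abundant was Ramp2 (829 CPM), the partner of the adrenomedullin receptor, which endothelial-like cells had at 1507 CPM. The receptor it pairs with, Calcrl, stood at 85.6 CPM and was highest in the chosen cells at 1.64-fold, as was the growth hormone receptor Ghr at 66.2 CPM and 1.22-fold. The leptin receptor Lepr had 2 UMIs, the insulin receptor Insr 12, the glucocorticoid receptor Nr3c1 108 (123 CPM), and Glp1r, Gipr and Gcgr none.

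Among 22 growth factor and matrix receptors 1 passed above the next type, the receptor-like gene Pdgfrl (306 CPM, 7.48-fold), and 7 passed above all other cells. Fgfr1, a receptor of fibroblast growth factors, had 416 CPM and was 3.90-fold above the next type, and the endocytic receptor Lrp1 had 435 CPM and 1.14-fold. Pdgfrb was lower in chosen cells (142 CPM) than in mural-like cells (352 CPM), the reverse of the order for Pdgfra between these 2 types (324 and 12 CPM).

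Transcription factors of the mesenchyme were mostly higher in the chosen cells than in all other cells together. Of 26 compared 14 passed above all other cells and 3 above the next type, Tcf21 (217 CPM, 16.2-fold), Tfap2b (86.8 CPM, 7.73-fold) and Twist2 (54.8 CPM, 5.44-fold). The list median was 1.30-fold over the next type and 4.24-fold over all other cells, against 0.473 and 0.855 for all genes. Tcf21 and Twist2 act in fibroblast precursors and Tfap2b in neural crest derivatives. Foxc1 (129 CPM), required for the formation of the meninges, and Foxd1 (102 CPM) were 1.68-fold and 3.28-fold over the next type. Mural-like or endothelial-like cells had more of Foxf2 (231 against 268 CPM) and Ebf1 (75.4 against 521 CPM), and Osr2, Alx1, Alx4, Six2 and Tfap2a had no UMI.

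Lists for the layers of the meninges held few genes, so their counts cannot tell whether 1 layer is singled out. Past 4-fold above the next type were 1 of 6 pial and perivascular genes (Col15a1), 1 of 6 arachnoid fibroblast genes (Slc6a13, which did not pass without the 11 Vtn-led cells), none of 5 arachnoid barrier genes and none of 6 dural genes. Against all other cells the counts were 3, 3, 0 and 2. Over all genes the shares were 0.48% above the next type and 2.16% above all other cells. Of the 3 arachnoid fibroblast genes above all other cells, Wnt6 was at 1.39-fold without those 11 cells. Of the barrier genes Dpp4 had 2 UMIs, Krt8 4, Krt18 7 and Cdh1 8. Of the dural genes Dpt had 5 UMIs, Alpl 2 and Fxyd5 57, while Mgp carried nearly all of the list's sum.

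Of the lists of cell state none had a gene past 4-fold above the next type, where 0.48% of all genes passed. Above all other cells 6 of 15 immediate early genes passed (Fos, Fosb, Junb, Ier2, Klf2 and Socs3), where 2.16% of all genes did. The sum over the list was 5744 against 1457 CPM. Without the 23 Fos-led cells described further on, Klf2 alone of these 6 passed. Another type had more of most of them. Fos, Fosb, Junb, Ier2 and Klf2 were 0.366, 0.356, 0.354, 0.248 and 0.400 times the next type, and Socs3 1.39 times it. Of 14 antigen presentation and interferon genes 3 passed above all other cells (Ifitm1, Ifitm2 and Ifitm3) and 4 were at least 4-fold below them. No cell cycle gene of 9 and no heat shock gene of 9 passed above all other cells, and Mki67 had 4 UMIs and Top2a 1. Genes of class II antigen presentation were near 0, with 10 UMIs of Cd74 (11.4 CPM, against 15237 CPM in border macrophage-like cells). The interferon-induced membrane genes Ifitm2 (1571 CPM) and Ifitm3 (1581 CPM) were highest in the chosen cells at 2.22-fold and 1.22-fold. Of 15 junction genes 1 passed above all other cells, the connexin gene Gjb2 (130.2 CPM), and the tight junction genes Cldn5, Ocln and Cldn3 had 3, 4 and 0 UMIs.

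The 3 vascular or border types set beside the chosen cells were mural-like cells (78 cells), endothelial-like cells (85) and border macrophage-like cells (158). Against mural-like cells 308 of 13953 genes (2.21%) were at least 4-fold higher in the chosen cells and 254 (1.82%) at least 4-fold lower. The lower side held the contractile genes, with Acta2 at 12.6 CPM against 11755, Tagln at 6.85 against 5431 and Rgs5, a pericyte marker, at 1.14 against 2888. The higher side was led by Dcn (436-fold), Mfap4 (215-fold), Lum (179-fold) and Inmt. Inmt had no UMI in mural-like cells (at least 108-fold with 3 counts as the limit). Dcn is the gene of the rule, so its place above each of the 3 types was fixed by the choice. Of 18 elastic fibre genes 11 were higher and none lower, and of 10 basement membrane and network collagens 2 were higher and none lower.

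Against endothelial-like cells 401 genes (2.87%) were at least 4-fold higher and 369 (2.64%) lower. The higher genes were led by Gsn (32021 CPM against 54.5, 497-fold), Dcn (395-fold) and Lum, with no UMI in endothelial-like cells (at least 184-fold). Crispld2 and Il33 also had no UMI there (at least 88.7-fold and at least 75.1-fold). The lower genes were led by the tight junction gene Cldn5 (3.43 against 5728 CPM), the organic anion transporter gene Slco1a4 and Ly6c1, and of 23 transporters 7 were lower and 3 higher. Against border macrophage-like cells 517 genes (3.71%) were higher and 427 (3.06%) lower, led by Dcn (574-fold), Igfbp5 (223-fold) and Itih5 (217-fold) on the higher side. On the lower side stood Cd74, the lysozyme gene Lyz2 (13.7 against 7311 CPM) and H2-Aa, and 366 genes (2.62%) were lower than in all other cells together.

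**Figure D3:**
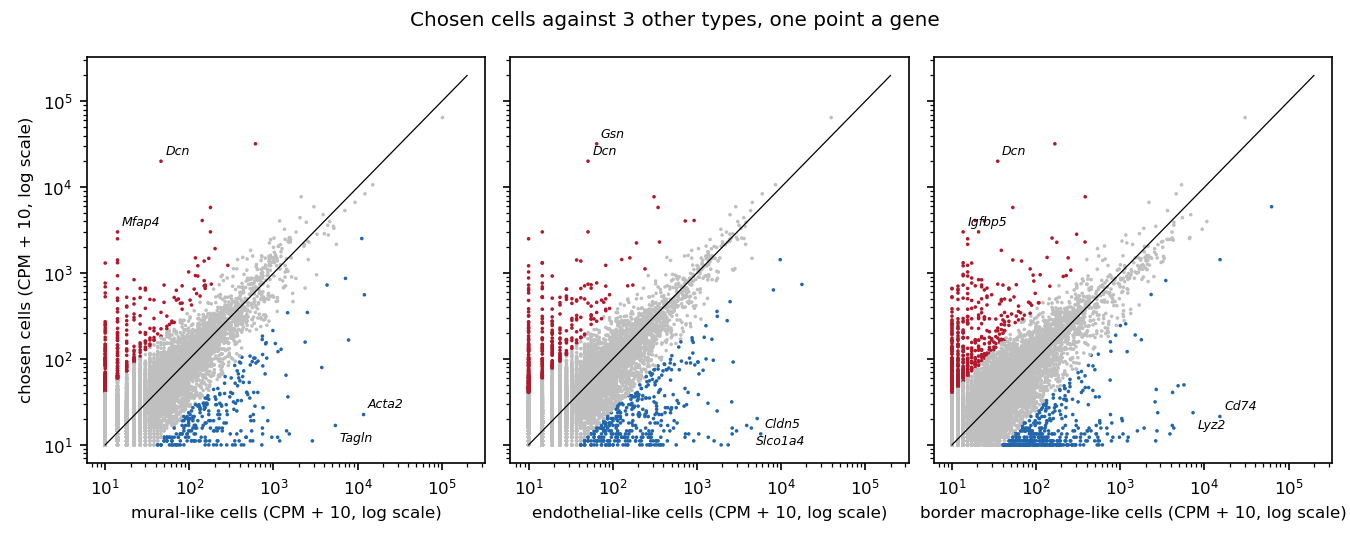
Each point is a gene, with its level in the chosen cells (y axis) against its level in mural-like, endothelial-like or border macrophage-like cells (x axes), all as CPM + 10 on log scales, with the line of equal level. Red genes are at least 4-fold higher in the chosen cells (308, 401 and 517) and blue genes at least 4-fold lower (254, 369 and 427).

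RNA of other cell types was looked for with their marker lists. The mural list summed to 779 CPM in chosen cells, against 27940.0 CPM in mural-like cells, and 717 CPM of it was Vtn, while Acta2 had 11 UMIs, Rgs5 1 and Notch3 none. The endothelial list summed to 693 CPM against 24948, of which 627 CPM was Itm2a, and Cldn5 had 3 UMIs and Plvap, Flt1 1 each. The sums of both lists thus came mostly from 1 gene each. Itm2a had UMIs in 69.6% of chosen cells and the other 9 endothelial genes had at most 19.4 CPM, as the other 9 mural genes had at most 22.8 CPM. The border macrophage list summed to 16 CPM, the microglia list to 412 CPM, the mature oligodendrocyte list to 1236 CPM and the haemoglobin list to 18.3 CPM, each below its sum in all other cells. At least 10 UMIs of the list of another type, with the mural and endothelial lists not counted, were found in 16 of 273 cells.

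The chosen cells were then clustered alone, which gave 8 groups. Since the same UMIs made the groups, the genes that lead them are a description. One of them is named by its size, the 28-cell group. The others were led by Ccl11 (61 cells), Hsd11b1 (49), Igfbp6 (40), Angptl1 (31), Ptn (30), Fos (23) and Vtn (11). In the cluster of VLMC markers fell 19 of the 23 Fos-led cells, 37 of the 40 Igfbp6-led cells and 22 of the 28-cell group. All cells of the other groups fell there. Folds in these sentences have 100 CPM added to each side, and only genes with at least 50 UMIs in a group were ranked for it.

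The Vtn-led group of 11 cells had 11049 CPM of Vtn (vitronectin), against 112 CPM in all other chosen cells, and 79181 CPM of Ptgds against 3550.4. The solute transporters Slc6a13 (2396 against 91.9 CPM), Slc6a20a (1322 against 10.9) and Slc7a11 (1425 against 20.6) and the carrier Rbp4 (2107 against 6.04) were higher as well, with folds from 12.7 to 20.8. Rbp4 came from 36.4% of the 11 cells, while Vtn and Ptgds had UMIs in 100% of them. These cells held 47 of the 64 UMIs of Igf2, in 10 of 11 cells, and had 971 CPM of it. Their sums over the retinoid, arachnoid fibroblast and transporter lists were 4585, 83187 and 7269.6 CPM, the highest of the 8 groups in each, and Ptgds alone made 79181 CPM of the arachnoid fibroblast sum, with 1538 of its 3834 UMIs in 1 cell.

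The Vtn-led group was also the highest of the 8 in its sums over the mural, endothelial and astrocyte lists. Its mural sum was 11132 CPM, nearly all of it Vtn, its endothelial sum 3655 CPM, of which Itm2a made 3511, and its astrocyte sum 1735 CPM, of which Gjb6 made 1177. At least 10 UMIs of the astrocyte list were found in 4 of the 11 cells, and the part of RNA of other cells in this group was not tested.

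The same 11 cells lay close to the limit of the rule. Their Dcn ranged from 12 to 42 UMIs with a median of 19, against a median of 61 over all chosen cells, and 9 of them had fewer than 20, out of 19 chosen cells below that value. All 11 fell in the cluster of VLMC markers, and they had 971 CPM of Lum and 929 CPM of Col1a1. The cluster of VLMC markers also held 8 cells that the rule left out, with 5403 CPM of Vtn, 19650.0 of Ptgds, 5645 of Igfbp2, 1989 of Rbp4 and 1452 of Igf2. With a limit of 20 UMIs of Dcn in the rule, Igf2 in the chosen cells was 21.6 CPM in place of 73.1. With that limit Vtn was at 138 CPM and Rbp4 at 6.35, and the chosen cells with a UMI of Igf2 numbered 13 in place of 24, those with Vtn 46 in place of 58 and those with Rbp4 4 in place of 8.

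The Fos-led group was marked by immediate early genes, transcription factors and regulators that are switched on within minutes of a stimulus. In its 23 cells Fos had 6675 CPM against 322 in all other chosen cells, Jun 5219 against 328, Junb 4042 against 273 and Ier2 3157 against 139. The cytokine inhibitor gene Socs3 was 10.5-fold higher and the heat shock gene Hspa1a 4.98-fold. This group had the highest median depth of the 8, at 3553 UMIs per cell, and its part of the chosen cells at barcode numbers 1 to 4 was 1.59%, 5.41%, 12.3% and 14.3% (1, 4, 9 and 9 cells).

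The Igfbp6-led group had 1937 CPM of Igfbp6 against 252 in the other chosen cells, and more of the proteoglycan gene Ogn (470.2 against 73.3), Inmt (3100.4 against 998), Mfap5 (1227 against 403) and the glypican gene Gpc3 (1466 against 504). Its sum over the mesenchymal transcription factors, 3913 CPM, was the highest of the 8 groups. The Ptn-led group had 10169.5 CPM of the growth factor pleiotrophin against 2146, and more of the connexin gene Gjb6 (1092 against 199.6) and of Ptgds (19529.8 against 6641). Its median cell had 3.5 UMIs of Ptgds and its highest 528 of the 1448 in the group. At least 10 UMIs were found in 11 of its 30 cells, so the sum was unevenly spread. The Ptn-led and Vtn-led groups shared Ptn (9211 CPM in the latter) and Gjb6 (1177 CPM).

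The other groups differed by degree in their leading genes. The Hsd11b1-led group had 494 CPM of Hsd11b1, which regenerates active glucocorticoid, against 95.8, and 7626 CPM of Mgp against 3260.3, with Igfbp7 and Il33 1.92 and 1.85 times higher. The Angptl1-led group had 1351 CPM of Angptl1 against 488 and the most Mfap4 (5628 CPM). The Ccl11-led group had 513 CPM of Ccl11 against 177, with UMIs in 47.5% of its cells and 22.6% of the others. Genes with at least 50 UMIs in the group numbered 460, 227 and 450 in these 3 groups. None of them passed 4-fold over the other chosen cells, and genes with fewer UMIs were not ranked.

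The 28-cell group also held genes of other types. Its cells had 2049.8 CPM of Mbp (myelin basic protein) against 84.6 in the other chosen cells, 2639 of Cnp, a gene of oligodendrocytes, against 110.1, and 933 and 864 of Cck and Cga, genes of the pars tuberalis list, against 4.03 and 16.1. Mbp had UMIs in 39.3% of them and 23.3% of the other chosen cells, Cnp in 53.6% and 29.8%, and Cga in 7.14% and 4.9%. For these genes the shares of cells differed far less than the sums. The shares of Cck lay further apart, at 17.9% and 1.22%. At least 10 UMIs of another type's list were found in 8 of the 28 cells, and the 1 cell called a doublet lay here. The part of doublets and of free RNA in this group was not tested.

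**Figure D4:**
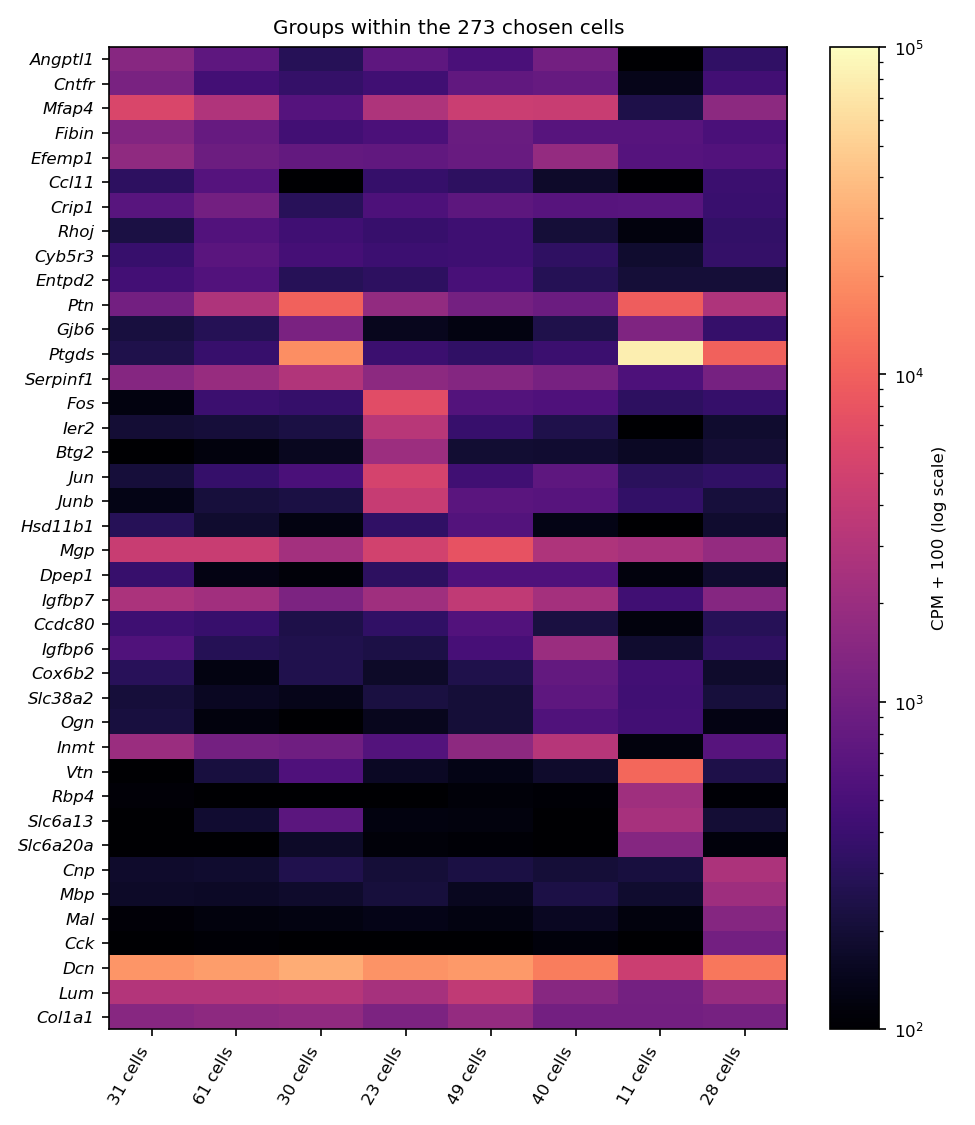
Summed level (colour, CPM + 100 on a log scale) of leading genes in the 8 groups found within the 273 chosen cells, each column labelled with its number of cells. Vtn, Rbp4, Slc6a13 and Slc6a20a are brightest in the 11-cell group, Fos, Ier2, Btg2, Jun and Junb in the 23-cell group, Cnp, Mbp, Mal and Cck in the 28-cell group, and Dcn is bright in all 8 and dimmest in the 11-cell group.

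Levels by barcode number are given for the chosen cells without a test, since the numbers have no label. Of 639 genes with at least 200 UMIs, 33 differed at least 2-fold between the highest and lowest number and 14 at least 4-fold, and without the Fos-led, Vtn-led and 28-cell groups the count at 2-fold was 14. The sum of the 15 immediate early genes was 2478, 3598, 7963 and 8861 CPM at numbers 1 to 4. Without the Fos-led group it was 2525, 2178, 3408 and 3713 CPM, and in all other cells of the matrix it was 1503, 1598, 1364 and 1380.5 CPM. Numbers 3 and 4 were thus high in the chosen cells and not in the other cells pooled. Single other types were not split by barcode number, so the pattern is not shown to be particular to the chosen cells.

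Heat shock genes were high at the same numbers both in the chosen cells and in all other cells pooled. Their sum was 2323, 2519, 4974 and 4322 CPM in the chosen cells and 4006, 3841, 6015 and 5815 CPM in the others. Ptgds rested in part on the Vtn-led group, at 1279, 5739.8, 8967 and 14859 CPM by number and 1214, 2439, 6036 and 4463 CPM without the 11 Vtn-led cells. Igfbp5 showed the reverse order, with 4062, 3708, 2033 and 2294 CPM, and kept it without the Vtn-led group (4096, 3913, 2165 and 2531 CPM). Angptl4 (angiopoietin-like 4), an inhibitor of lipoprotein lipase, stood at 509.6, 525, 77.5 and 91.8 CPM, high at numbers 1 and 2. What the numbers stand for is not known here, and a batch and a condition cannot be told apart in these values.

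**Figure D5:**
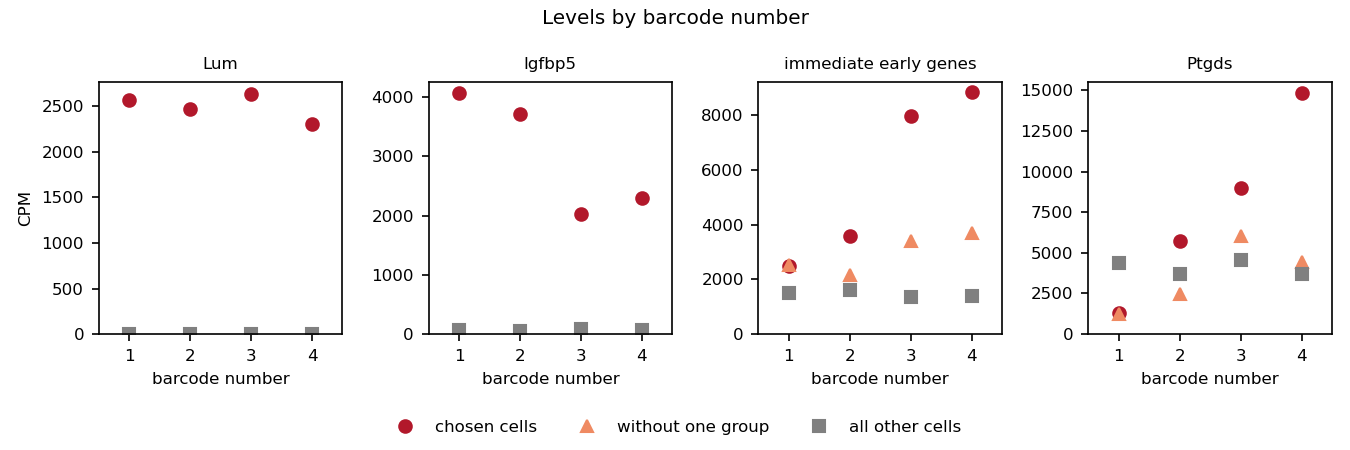
Level (y axes, CPM) of Lum, Igfbp5, the sum of 15 immediate early genes and Ptgds at barcode numbers 1 to 4, in the chosen cells (red circles), in all other cells (grey squares) and, in the 2 right panels, in the chosen cells without the Fos-led or the Vtn-led group (orange triangles). Lum is level, Igfbp5 is higher at numbers 1 and 2, and the immediate early genes and Ptgds are higher at numbers 3 and 4.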

How the data were processed

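The authors mapped the reads to GRCm38 (mm10) and used Cell Ranger 2.0 to obtain UMI counts for each gene in each cell. The deposited values are these raw counts, without normalization, in 1 matrix of 27998 genes and 5982 cells, and columns of per-sample values not used numbered 0. The gene annotation release and the rule for calling cells are not given in the sources used here. The 32 sample records are sequencing lanes and index parts of 4 libraries. The columns name no library, so the planned edgeR test of refed against fasted cells was not run, the values form 1 sample, and no test was made. Gene identifiers were matched to GENCODE vM21 symbols and positions for 27645 of 27998 genes.

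No cell was removed. After scaling to equal totals and log transformation, 2000 variable genes, 30 principal components (15 within the chosen cells), 15 neighbours and Leiden clusters at resolution 1 (seed 0) were obtained in scanpy 1.11.5 with igraph 0.11.9, anndata 0.12.19, scikit-learn 1.9.0, scipy 1.17.1, numpy 2.4.6, pandas 2.3.3 and python 3.11.15. Each marker list was scored in a cluster by averaging the CPM of its genes after division by each gene's maximum over clusters. Naming needed a best score of 0.3 or more that exceeded the second by 1.5 times, and 3 or more raised markers. These thresholds were chosen with the data in view, and the haemoglobin list named no cluster. Other types hold no chosen cells, and 8 and 18 further cells, those in the cluster of VLMC markers and those in an unnamed cluster whose best list was VLMC, were left out of the other types. Doublets were called by Scrublet within each barcode number and kept. Genes with at least 50 UMIs over all cells were compared. Exact Poisson (CPM) and Clopper-Pearson (shares) intervals at 95% hold counting error alone, and UMIs in the same cell are not independent draws. A count of 0 was read as a limit of 3 counts. Shares of cells were also computed with each cell thinned to 1000 UMIs. The fold calls against all other cells pooled were tested on simulated counts with known changes in the more abundant genes. The interval and the thinning were checked as well. The choice of the next type, genes with few UMIs, the clustering and the naming were not simulated.

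The cells, the rule and the gene lists were chosen with earlier results of these data known. Named genes are the markers and genes of the rule, up to 8 members per list by level, call or absence, the 20 genes furthest above the next type, the 10 most abundant, and 8 leading genes per group and per direction for the 3 similar types. Angptl4 was named after its values were seen. Alternatives were other limits of the rule, pseudocounts, UMI minimums, clusterings, doublets left out and each barcode number left out. No sequence is printed, since no value here bears on one. Some single-gene results are not reported here.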

Additional observations from a re-analysis of the deposited data

How the results depend on the processing

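No paired analysis was possible because the columns carry no library, replicate or condition. Values by barcode number are not replicates, and depth limits genes under about 50 UMIs. The alternatives for the 3 similar types and those that leave out groups of chosen cells were added after the data had been seen.

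With a pseudocount of 1 CPM in place of 10, the genes at least 4-fold higher and lower numbered 1797 and 769 against mural-like, 2042 and 899 against endothelial-like and 1652 and 929 against border macrophage-like cells. With 50 CPM they numbered 81 and 107, 107 and 142, and 148 and 128, the genes above the next type 31 in place of 67, and the list members among them 18 in place of 33. The cause is the pseudocount itself, which decides whether genes with few UMIs can pass. With at least 200 UMIs per gene, 277 genes were lower than in border macrophage-like cells. At resolution 0.5 the chosen cells formed 5 groups in place of 8. Without the Fos-led, Vtn-led and 28-cell groups, 14 in place of 33 genes differed 2-fold between barcode numbers.

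The other 142 alternative values for counts lay within 1.5 times the main count. With each barcode number left out in turn, the rule gave 199 to 210 cells, the genes above the next type numbered 61 to 67 and the list members 31 to 36. The 23 Fos-led cells stayed together at resolutions 0.5 and 1.5, in groups of 23 and 38 cells, and 22 of them did in a group of 33 when thinned. The 11 Vtn-led cells were in 1 group each time, of 12, 11 and 45 cells. The 28-cell group was part of a group of 114 at resolution 0.5 and the same at 1.5, and 6 of its cells stayed together when thinned. Without the Vtn-led group 65 of the 67 genes above the next type still passed.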

Other observations

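An unnamed cluster of all cells whose best list was that of VLMC markers held 18 cells that the rule left out. These cells had 14991 CPM of Mgp (1207 UMIs), 3490 CPM of Fxyd5, 1677 CPM of Ccn3, 1478.0 CPM of Igfbp6, 1155 CPM of Rspo3 and 969 CPM of the transporter gene Slc47a1. The chosen cells had 4037 CPM of Mgp, 65.1 of Fxyd5, 11.4 of Ccn3, 493 of Igfbp6, 35.4 of Rspo3 and 11.4 of Slc47a1. Dcn was at 74.5 CPM in the 18 cells (6 UMIs), Lum at 12.4 CPM (1 UMI) and Col1a1 at 99.4 CPM (8 UMIs). Fxyd5 and Ccn3 are on the list of dural fibroblast genes and Slc47a1 on that of arachnoid barrier genes, both chosen with these data known. The rule on Dcn therefore leaves out a population with matrix genes that is low in Dcn, and no name was given to it.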
